A study of Homo sapiens with 18 samples.

Results

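The Alu monomers FAM, FLAM_A, FLAM_C and FRAM were described in total RNA of IMR90 cells, which are human lung fibroblasts. Members were all rows of the repeat count tables whose repeat name is FAM, FRAM or begins with FLAM_, which gave 35837 of 2404193 annotated repeat copies in the 5-FU table and 30808 of 1996647 in the Nutlin table. Of these, 27458 copies were listed in both tables, and 39187 in either. There were 18 samples, 2 in each of 9 groups. Drug-treated samples had 5 µM Nutlin for 6 h, or 375 µM 5-fluorouracil (5-FU) for 6, 12 or 24 h. Each of these 4 groups had 2 DMSO samples matched to it. The other 2 samples were untreated, and their medium was changed 12 h before RNA extraction. All groups were the same cell line, and nothing in the labels says that samples of a group came from separate cultures, so p-values here measure the spread between these samples, which may be technical.

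Alu elements descend from 7SL RNA, the RNA of the signal recognition particle, which RNA polymerase III makes from an internal promoter. A 7SL-derived copy that lost the central part of the RNA gave the fossil Alu monomer FAM. The free left monomers FLAM_A and FLAM_C and the free right monomer FRAM followed, and a left and a right arm joined head to tail form the Alu dimer. BC200 RNA, encoded by BCYRN1 and best known from neurons and tumour cells, is itself a transcribed monomer of the left-arm kind with an added A-rich and unique end. Monomer copies also lie inside genes, so that a count over a copy can come from RNA of the gene around it as well as from a transcript of the copy itself. Nutlin keeps MDM2 from binding p53 and so stabilises p53, while 5-FU is an antimetabolite that disturbs RNA and DNA synthesis. The series title ties repeat expression to the tumour suppressor p53.

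Libraries of the 5-FU table held 2412330 to 6290320 counts, with the lowest totals in DMSO at 12 h, and those of the Nutlin table had between 9109880 and 11880300, of which 61.7% to 67.9% lay in copies named 7SLRNA. Of a library's counts, monomers took 0.711% to 0.913% for 5-FU and 0.252% to 0.330% for Nutlin. Untreated replicate 1 was listed beside both drugs, with 31906 monomer counts for Nutlin and 31177 for 5-FU. Its total was 9669970 counts for Nutlin but 3481300 for 5-FU, with 61.7% and 5.33% of these in 7SLRNA copies. Monomers took 0.330% and 0.896%. For this sample the total and the shares thus differed by table, while the monomer counts were similar. The reason was not tested. Levels were not compared between the tables. The pair of untreated columns beside Nutlin held the same values throughout and counted as 1 sample. Counts were scaled to CPM, the count per 1e6 counts of the TMM-scaled library. A sum or copy is called where edgeR's quasi-likelihood test gave p under 0.05 after Benjamini-Hochberg adjustment over every name, or every copy, tested. In total RNA, fewer cells and less RNA per cell cannot be told apart.

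FLAM_C was the largest group, with 17356 copies in the 5-FU table, followed by FLAM_A with 9546, FRAM with 5903 and FAM with 3032. A copy was taken as full length where its span covered at least 90% of the consensus, whose length was read from the row names as 185 bases for FAM, 176 for FRAM, 143 for FLAM_C and 142 for FLAM_A. By this measure 69.6% of FLAM_C copies were full length, against 52.2% for FAM, 43.9% for FRAM and 40.6% for FLAM_A. The median length on the genome was 132 bases, and 83.4% of the copies began within the first 10 bases of their consensus. FLAM_C had the largest share of such starts (89.2%) and FLAM_A the smallest (77.4%). No count was recorded in any library for 43.5% of the copies of the 5-FU table and 59.6% of those of the Nutlin table. FLAM_C and FRAM had the most empty copies (49.1% and 48.8% in the 5-FU table), and FAM and FLAM_A the fewest (31.5% and 34.0%).

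Summed over the 14 libraries of the 5-FU table, FAM had 139.9 counts per kb of annotated sequence, FLAM_A 121, FLAM_C 104.6 and FRAM 68.9. FAM was above FLAM_A in all 14 libraries, and FLAM_A above FLAM_C in 11, with FLAM_C above FLAM_A in both 24 h libraries of 5-FU and in 1 of 12 h. In the Nutlin table FLAM_A was above FAM in all 5 libraries (47.5 and 40.2 counts per kb in sum). The tables list different copies, with 7701 FLAM_A copies for Nutlin and 9546 for 5-FU, and 3057 and 3032 FAM copies. Untreated replicate 1, a column of both, had similar counts in each (FLAM_A 9705 and 9511, FAM 4520 and 4394). For this sample the order of these names thus changed with the copies listed. Fragments had the higher density in every library of both tables for FLAM_A (150.9 against 84.1 counts per kb in full-length copies of the 5-FU table) and for FAM (156.0 against 127.6). For FLAM_C full-length copies had it in every library (112.8 against 82.5 in the 5-FU table). Without its most abundant copy, full-length FLAM_C had 90.1 counts per kb for 5-FU. For Nutlin it then had 28.7 counts per kb, below the 30.4 of its fragments. FRAM full-length copies were above fragments in 12 of 14 libraries of the 5-FU table and in 2 of 5 of the Nutlin table. These densities are descriptions of summed counts, with no test.

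Few copies carried the signal. For 5-FU, 439 of 35837 copies (1.22%) had at least 100 of the 498181 monomer counts, and for Nutlin, 191 of 30808 (0.620%) had at least 100 of 142442. The top 10 copies took 24.0% and 20.8% of all monomer counts. Among FAM copies the full-length copy at chr20:43535938-43536118 held 14.6% of the counts in the 5-FU table. For FRAM this was the full-length copy at chr12:13065756-13065919 with 15.0%, and for FLAM_A a fragment at chr17:74560508-74560598 with 7.54%. In the Nutlin table the FRAM copy with the highest count was at chr11:27517379-27517536 (9.26%). None of these 4 copies was called in a drug comparison. For FLAM_C it was the full-length copy at chr16:67844891-67845026, which spans bases 1 to 133 of its consensus and held 15.8% of the FLAM_C counts and 7.41% of all monomer counts. Positions are on hg19 as in the tables, which give no strand, and no copy was placed in a gene. The sequences of the copies were not used here.

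Summed over all copies of a name, no monomer passed the test after Nutlin. FLAM_C read 1324 and 1392 CPM in DMSO and 1336 and 1223 CPM in Nutlin. FLAM_A read 899 and 941 CPM in DMSO and 934 and 867 CPM in Nutlin, and the groups overlapped for both names. The log2 fold changes were −0.09 for FLAM_C (SE 0.08), −0.06 for FRAM (SE 0.09), and −0.03 for both FLAM_A (SE 0.08) and FAM (SE 0.08). edgeR called 0 of 4 monomer names, with 0 of 4 at an unadjusted p under 0.05, and DESeq2 called 1, lower. Of all 1028 names tested, edgeR called 12.7%. Scaling by library size alone called all 4 monomer names lower, with FLAM_C at −0.26. Without DMSO replicate 1 edgeR called 1 name, lower.

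After 6 h of 5-FU no monomer name passed the test either. FAM read 1083 and 1091 CPM in DMSO and 1262 and 1317 CPM in 5-FU, with a log2 fold change of 0.25 (SE 0.10, adjusted p 0.386). Its groups did not overlap, as for 55.8% of all names, and 35.3% of all names had 5-FU higher. FLAM_C had a log2 fold change of 0.23 (SE 0.11, adjusted p 0.418), FLAM_A of 0.12 (SE 0.08) and FRAM of 0.11 (SE 0.08). edgeR called 0 of 4 monomer names, 2 of 4 had an unadjusted p under 0.05, and DESeq2 called 0. Of all 1078 names tested edgeR called 0%, with 126 at an unadjusted p under 0.05. A fit of the 4 libraries of this comparison alone called 2 monomer names, both higher.

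All 4 monomer names rose after 12 h of 5-FU, FLAM_C most. FLAM_C read 2293 and 2412 CPM in DMSO and 4544 and 4940 CPM in 5-FU, a log2 fold change of 1.01 (SE 0.11, adjusted p 1.7e-05). FAM read 790 and 812 CPM in DMSO and 1241 and 1267 CPM in 5-FU (log2 fold change 0.65 with SE 0.10, adjusted p 0.000277). The FRAM libraries read 673 and 719 CPM in DMSO and 971 and 978 CPM in 5-FU (log2 fold change 0.48 with SE 0.09, adjusted p 0.000738). FLAM_A read 1740 and 1827 CPM in DMSO and 2352 and 2332 CPM in 5-FU (log2 fold change 0.39 with SE 0.08, adjusted p 0.00247). No DMSO library overlapped a 5-FU library for any of the 4 names. This was also true of 72.5% of all names, and 50.2% of all names had 5-FU higher. The background was broad, since 33.8% of all 1078 names were called and 28.5% were higher. The median of all names was 0.17 and moved with the scaling, down to −0.40 with library size alone, which put FLAM_A at −0.18 and FRAM at −0.08. Relative to the median of all names, FLAM_C stood at 0.84 both by TMM scaling and by library size alone, FAM at 0.47 and 0.48, FRAM at 0.31 and 0.32, and FLAM_A at 0.22 both ways. DESeq2 called 2 of the 4 names and scaling by library size alone 1, all of them higher.

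The DMSO libraries of 12 h were themselves low for the monomers. FLAM_C was at 2353 ± 83.9 CPM there (SD, n = 2), against 3406 ± 93.3 CPM in DMSO at 6 h, 3389 ± 243 CPM in DMSO at 24 h and 3602 ± 1.69 CPM in untreated cells. The same held for FAM (801 ± 15.9 CPM against 1087 ± 5.60 and 1063 ± 74.1 CPM in DMSO at 6 and 24 h). It was not particular to monomers. The dimeric Alu name AluJb read 16032 and 16761 CPM in DMSO at 12 h, against 22745 and 22160 CPM at 6 h. BC200 read 842 and 916 CPM, against 2446 and 2623 CPM at 6 h. 7SLRNA went the other way, with 10.6% and 12.5% of the counts in DMSO at 12 h. In DMSO at 6 and 24 h it had 3.59% to 4.77%. Set against the DMSO libraries of 6 h and 24 h in place of those of 12 h, FLAM_C was higher at 0.48 (adjusted p 0.00166) and FAM at 0.22 (adjusted p 0.0483). FLAM_A then stood at 0.04 (adjusted p 0.644) and FRAM at −0.01 (adjusted p 0.910). The part of the shallow DMSO libraries in the 12 h calls was not tested beyond this.

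**Figure D1:**
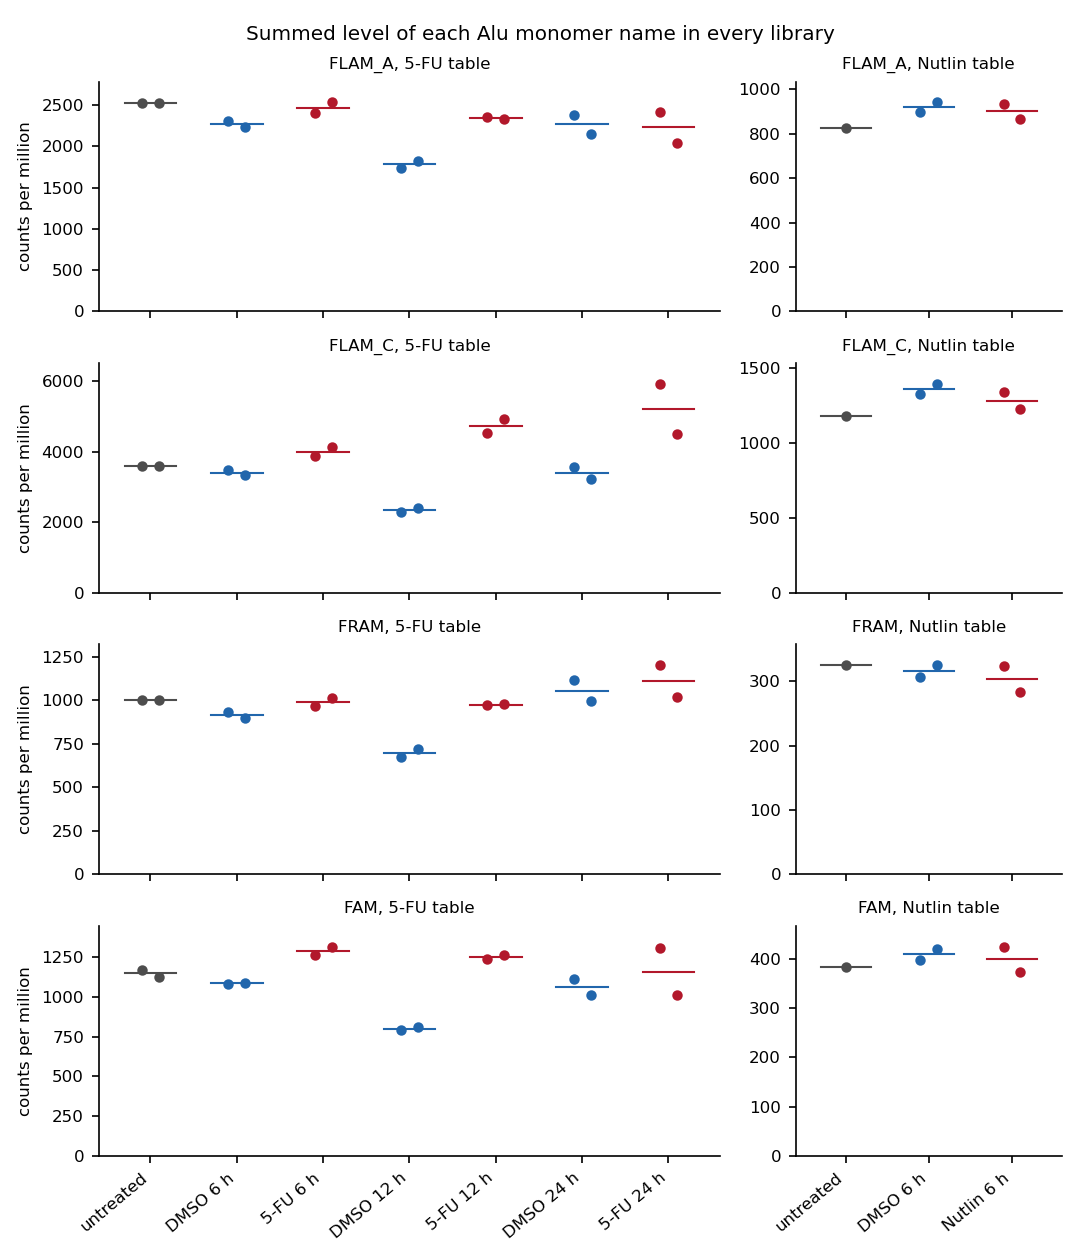
Summed CPM of each monomer name (rows of panels) in every library of the 5-FU table (left) and the Nutlin table (right). Points are libraries, bars their group means, blue DMSO, red drug and grey untreated. FLAM_C climbs from 2293 and 2412 CPM in DMSO at 12 h to 4544 and 4940 CPM in 5-FU, and the DMSO libraries of 12 h lie lowest for all 4 names.

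After 24 h of 5-FU, FLAM_C alone among the monomer names passed the test. It read 3561 and 3217 CPM in DMSO and 5925 and 4508 CPM in 5-FU, a log2 fold change of 0.62 (SE 0.11, adjusted p 0.00211). FAM was at 0.12 (SE 0.10, adjusted p 0.460), FRAM at 0.07 (SE 0.08, adjusted p 0.632) and FLAM_A at −0.02 (SE 0.08, adjusted p 0.878), and the DMSO and 5-FU libraries of these 3 names overlapped. Of all 1078 names 12.1% were called, and 10.9% of all names were higher. A fit of the 4 libraries of the comparison alone called 0 monomer names, and without 5-FU 24 h replicate 2 the count was 2. The 24 h effect of 5-FU minus its 6 h effect was 0.39 for FLAM_C (SE 0.15, adjusted p 0.359). By this test of the difference itself no monomer name was called, 1 of 4 had an unadjusted p under 0.05, and DESeq2 called 0, against 1.11% of all names called by edgeR. The FLAM_C effect is thus not shown to differ between 6 and 24 h.

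Split into full-length copies and fragments, FLAM_C rose at 24 h in its full-length copies. At 24 h full-length FLAM_C went from 2534 ± 201 CPM in DMSO to 4374 ± 925 CPM in 5-FU (SD, n = 2; log2 fold change 0.79 with SE 0.12, adjusted p 0.000658). FLAM_C fragments were at 855 ± 41.5 and 842 ± 76.2 CPM (log2 fold change −0.02 with SE 0.07, adjusted p 0.870). Full-length FLAM_C was the single split sum of 8 that was called at 24 h, with 12% of all split and unsplit names called. At 12 h all 8 split sums were called higher, against a background of 34.1% called in either direction. Full-length FLAM_C went from 1745 ± 78.9 to 3852 ± 262 CPM (log2 fold change 1.14 with SE 0.12, adjusted p 1.1e-05) and its fragments from 608 ± 4.99 to 890 ± 17.5 CPM (log2 fold change 0.55, SE 0.07). For FRAM the full-length sum had 0.66 (SE 0.12) and the fragments 0.30 (SE 0.07). FLAM_A had 0.49 (SE 0.08) and 0.35 (SE 0.09), and FAM 0.59 (SE 0.10) and 0.71 (SE 0.12), so that fragments had the larger value in FAM. Whether full-length copies and fragments of a name differ was not tested. After Nutlin and after 6 h of 5-FU, edgeR called 0 of 8 split sums, against 12.7% and 0% of all rows. The values ran from −0.15 to 0.03 after Nutlin, with 0 of 8 at an unadjusted p under 0.05, and from 0.08 to 0.27 after 6 h of 5-FU, with 2 of 8. DESeq2 was not run on the split sums.

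**Figure D2:**
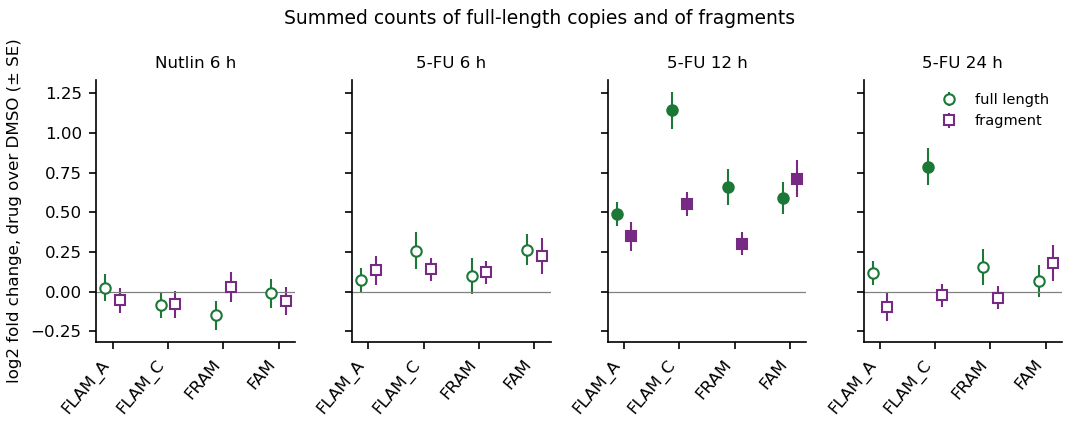
Log2 fold change (drug over DMSO) of summed full-length copies (green circles) and fragments (purple squares) of each monomer name in the 4 drug comparisons. Bars are standard errors and filled symbols are called. At 24 h full-length FLAM_C alone is filled, at 0.79, while its fragments lie at −0.02.

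The call of FLAM_C at 24 h rested on 1 copy, at chr16:67844891-67845026. In the 5-FU table this copy had 1304 and 1110 counts in untreated cells, 1685 and 1633 in DMSO at 6 h, 303 and 276 in DMSO at 12 h, and 1116 and 1122 in DMSO at 24 h. It had 1736 and 2322 counts after 6 h of 5-FU, 3387 and 4194 after 12 h, and 8181 and 8569 after 24 h. Every 5-FU group lay above every DMSO and untreated library of the 5-FU table. At 6 h the margin was small, with 1736 counts in 5-FU against 1685 in DMSO at the closest. On the CPM scale of tested copies it went from 335 ± 22.5 to 407 ± 49.1 at 6 h (log2 fold change 0.28 with SE 0.22, adjusted p 0.811). It went from 109 ± 4.78 to 1107 ± 157 at 12 h (log2 fold change 3.34 with SE 0.24, adjusted p 2.4e-08). At 24 h it went from 201 ± 11.2 to 1611 ± 402 (log2 fold change 3.003 with SE 0.23, adjusted p 1.2e-07). The 24 h effect exceeded the 6 h effect by 2.72 (SE 0.31, adjusted p 0.00013). Against the DMSO libraries of 6 and 24 h, its 12 h value was 2.09 (adjusted p 1.3e-07). After Nutlin the copy did not pass the test, with 1150 and 1391 counts in DMSO and 1653 and 1073 in Nutlin.

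This FLAM_C copy made up 3.66% to 10.1% of all FLAM_C counts in the DMSO libraries of the 5-FU table, 21.97% and 24.3% after 12 h of 5-FU, and 33.8% and 30.3% after 24 h. Without the most abundant copy of each name, FLAM_C had a log2 fold change of 0.69 at 12 h (adjusted p 0.000187) and of 0.15 at 24 h (adjusted p 0.487). The FLAM_C sum without the chromosome 16 copy was 3348 and 3029 CPM in DMSO at 24 h and 3924 and 3142 CPM in 5-FU, which overlap. Full-length FLAM_C without it was at 0.73 at 12 h (adjusted p 0.000238) and 0.21 at 24 h (adjusted p 0.328). The call at 12 h against its own DMSO libraries thus stood without this copy, and the call at 24 h did not. Without the copy FLAM_C was at 2261 CPM in DMSO at 12 h, against 3072 and 3188 CPM in DMSO at 6 and 24 h. It was at 3560, 3642 and 3533 CPM after 6, 12 and 24 h of 5-FU. A rise at 12 h over the other DMSO libraries was not tested without the copy. The share of monomer counts in full-length copies was also higher at 12 and 24 h of 5-FU. It was 53.8% to 57.3% in the DMSO libraries of the 5-FU table, 61.7% and 62.6% after 12 h of 5-FU, and 66.5% and 64.3% after 24 h. Leaving out the copy, it was 53.0% to 55.3% in DMSO, 57.0% and 57.2% at 12 h, and 58.9% and 57.6% at 24 h.

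The chromosome 16 copy followed BC200 from library to library. Its count was 9.20% to 14.3% of the BC200 count in all 14 libraries of the 5-FU table and 10.4% to 12.98% in the libraries of the Nutlin table. BC200 itself spanned 2677 to 68995 counts over the 5-FU table. BC200 rose by 3.64 on the log2 scale at 12 h (SE 0.17, adjusted p 1.5e-08) and by 2.68 at 24 h (SE 0.16, adjusted p 4.0e-07), and at 6 h it stood at 0.66 (SE 0.15, adjusted p 0.108). Little was counted around the copy. The 21 other repeat copies listed within 5 kb had 5 counts together, and the 72 within 20 kb had 136, against 36938 counts in the copy. How reads that match several places were counted is not given in the sources used here, so a FLAM_C copy close in sequence to BC200 may share reads with it. The part of shared reads in this result was not tested.

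**Figure D3:**
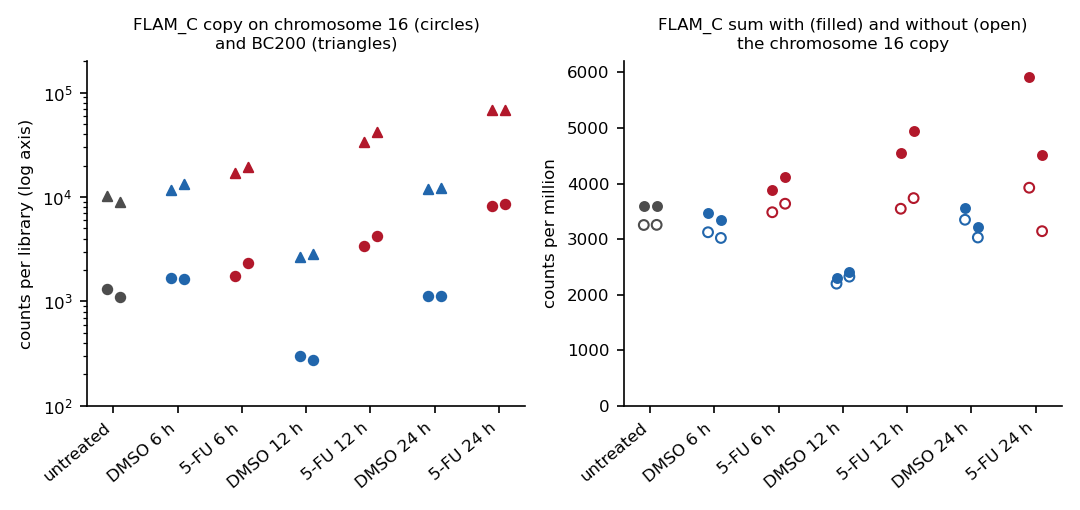
Left, counts per library (log axis) of the FLAM_C copy on chromosome 16 (circles) and of BC200 (triangles) in the 5-FU table. Right, CPM of the FLAM_C sum with that copy (filled) and without it (open). Blue is DMSO, red 5-FU and grey untreated. Copy and BC200 keep a distance of 9.20% to 14.3% in every library, and without the copy the 24 h libraries of 5-FU and DMSO overlap.

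At the level of single copies, 645 monomers of the 5-FU table (286 FLAM_C, 196 FLAM_A, 88 FRAM and 75 FAM, with 394 full length) and 327 of the Nutlin table passed the filter on low counts. A copy could pass through a single group in which it is high. After Nutlin 31 of 327 copies were called, 12 higher and 19 lower, which is 9.48% against 9.57% of all copies tested (5.36% higher and 4.21% lower). By name these were 13 of 98 FLAM_A, 14 of 144 FLAM_C, 4 of 41 FRAM and 0 of 44 FAM copies. In FAM 9 copies had an unadjusted p under 0.05. Full-length copies and fragments were called at 9.50% and 9.45%. The split into higher and lower moved to 12 and 12 with TMM factors from all copies, 10 and 25 with library size alone, and 6 and 8 in DESeq2. Shares over all copies were not counted under these settings.

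After 12 h of 5-FU 70 of 645 monomer copies were called, 58 higher and 12 lower, or 10.9% against 9.71% of all copies. The higher calls made up 8.99% of monomer copies against 5.44% of all copies, and the lower calls 1.86% against 4.27%. Among dimeric Alu copies 6.90% were higher in AluJ, 8.02% in AluS and 9.77% in AluY, and MIR copies, an unrelated class of short repeats, had 6.12%. The median log2 fold change was 0.44 over monomer copies, 0.29 over AluJ, 0.43 over AluS, 0.48 over AluY, 0.04 over MIR and −0.04 over all copies. FLAM_C copies had a median of 0.60 with 32 higher and 4 lower of 286, and FAM copies one of 0.13 with 8 higher and 2 lower of 75. Full-length copies were called higher in 40 of 394 cases and fragments in 18 of 251. TMM factors from all copies gave 96 higher and 6 lower, library size alone 29 and 26, and RLE factors 53 and 15. Against the DMSO libraries of 6 and 24 h, 116 copies were called, 92 higher and 24 lower. The 9.71% of all copies belongs to the main fit, and no share over all copies was counted for these alternatives. Leaving out 1 library lowered the count to 20 (without DMSO 12 h replicate 1), 25 (without DMSO replicate 2), 39 (without 5-FU replicate 1) or 25 (without 5-FU replicate 2).

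After 24 h of 5-FU 29 of 645 copies were called, 17 higher and 12 lower, or 4.50% against 4.23% of all copies (2.42% higher and 1.82% lower). FLAM_C had 11 higher and 5 lower, FLAM_A 4 and 4, FRAM 2 and 1, and FAM 0 and 2. The balance changed with the scaling, to 11 higher and 20 lower with library size alone and 16 and 19 in DESeq2, with no share over all copies counted there. Without DMSO 24 h replicate 1 the count was 10, and without replicate 2 it was 9. After 6 h a single copy was called, against 0.101% of all copies (0.0896% higher and 0.011% lower), with 36 monomer copies at an unadjusted p under 0.05 and 1 called by DESeq2. In the 4 drug comparisons 107 of the 648 monomer copies tested in either table were called (16.5%), 73 higher only, 32 lower only and 2 in both directions. Over all copies 13.9% were called in any of them, and 53.9% of these were higher only, against 68.2% for the monomers. The Nutlin test covered 327 of the 648 monomer copies, but 21328 of 63910 of all copies. Monomers thus had more tests per copy, and these shares are not like for like.

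**Figure D4:**
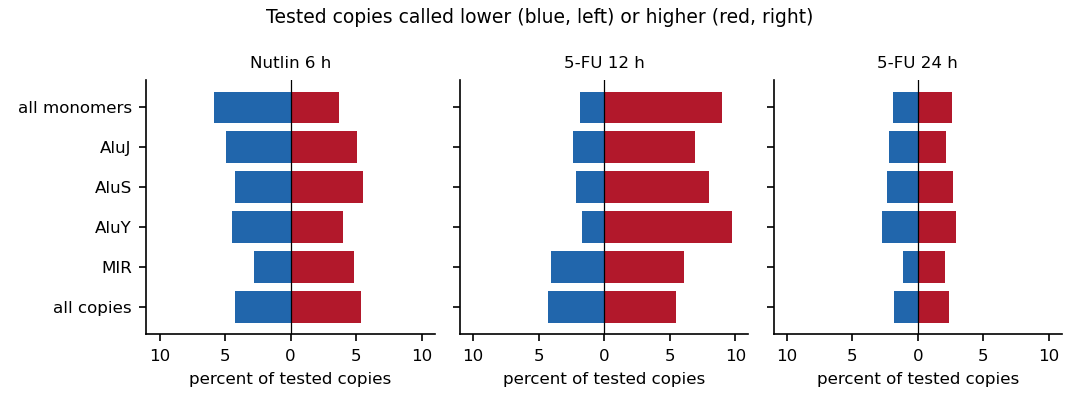
Percent of tested copies called lower (blue, to the left) and higher (red, to the right) after Nutlin at 6 h and 5-FU at 12 and 24 h, for the monomers, the AluJ, AluS, AluY and MIR copies, and all copies. Monomers called higher reach 8.99% at 12 h, between AluS (8.02%) and AluY (9.77%).

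Among copies called after Nutlin with at least 1 log2 unit of change and no overlap with DMSO, the smallest p of the higher ones belonged to a full-length FLAM_A copy at chr16:66978093-66978226. It had 46 and 51 counts in DMSO and 199 and 163 in Nutlin (5.14 ± 0.24 to 18.6 ± 1.51 CPM; log2 fold change 1.85 with SE 0.19, adjusted p 8.0e-05). It rose too after 12 h of 5-FU, from 27 and 33 to 125 and 144 counts (log2 fold change 1.79), and after 24 h, from 90 and 75 to 183 and 216 (log2 fold change 1.35, adjusted p 0.0028), though without DMSO 24 h replicate 2 the 24 h value lost its call (adjusted p 0.0939). At 6 h of 5-FU it stood at 0.58 (adjusted p 0.651). The 1 tested repeat of another name within 5 kb rose beside it in all 3 comparisons, with 1.58, 1.75 and 1.18.

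A FRAM fragment at chr8:124514706-124514776, spanning bases 53 to 122 of the consensus, rose from 10 and 11 counts in DMSO to 79 and 78 in Nutlin (log2 fold change 2.85 with SE 0.33, adjusted p 0.000221). All 3 tested repeats of other names within 5 kb rose with it, with a median of 3.70. Of the copies that fell after Nutlin, the full-length FLAM_C copy at chr19:55876025-55876153 had 258 and 305 counts in DMSO and 148 and 96 in Nutlin (log2 fold change −1.27 with SE 0.14, adjusted p 0.000195), and 3 of its 4 tested neighbours fell as well. The full-length FLAM_A copy at chr2:37325909-37326042 had 137 and 170 counts in DMSO and 89 and 63 in Nutlin (log2 fold change −1.07 with SE 0.18, adjusted p 0.00337). Its 16 tested neighbours had a median of −0.05, and 3 of them were called lower.

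The 1 copy called after 6 h of 5-FU was a FAM fragment at chr6:43000567-43000699. It had 14 and 16 counts in DMSO and 51 and 59 in 5-FU at 6 h (log2 fold change 1.86 with SE 0.35, adjusted p 0.0343), and the call was lost when any 1 of these 4 libraries was left out (adjusted p 0.168 to 0.356). None of its 14 tested neighbours was called at 6 h, and their median was 0.57. At 12 h it had 16 and 19 counts in DMSO and 76 and 96 in 5-FU (log2 fold change 1.92, adjusted p 0.00108), and 13 of the 14 neighbours were called higher with it. At 24 h it stood at 1.099 (adjusted p 0.0519).

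Besides the chromosome 16 copy, the smallest p of a 12 h rise belonged to a full-length FAM copy at chr1:27992660-27992823. It had 31 and 54 counts in DMSO and 300 and 332 in 5-FU (16.1 ± 6.48 to 92.3 ± 5.81 CPM; log2 fold change 2.52 with SE 0.30, adjusted p 1.6e-05). Its DMSO libraries had 133 and 208 counts at 6 h and 205 and 194 at 24 h, and against those its 12 h value was 1.40 (adjusted p 0.000252). At 24 h, with 289 and 264 counts in 5-FU, it stood at 0.58 (adjusted p 0.268). It had no tested repeat of another name within 5 kb.

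The smallest p-values of a 12 h fall belonged to full-length FRAM copies. The copy at chr2:228421503-228421667 had 17 and 30 counts in DMSO and 5 and 2 in 5-FU (log2 fold change −3.08 with SE 0.53, adjusted p 0.000837), and all 4 tested neighbours were called lower. The copy at chr1:237066288-237066447 had 14 and 23 counts in DMSO and 2 and 5 in 5-FU (log2 fold change −2.74 with SE 0.56, adjusted p 0.0036). It fell again at 24 h, from 31 and 36 to 7 and 8 counts (log2 fold change −2.07, adjusted p 0.0135). Of its 8 tested neighbours 5 were called lower at both times. Its 12 h call was lost without DMSO 12 h replicate 2 (adjusted p 0.0583) and without 5-FU 12 h replicate 1 (adjusted p 0.0559).

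The smallest p of a 24 h fall belonged to a short FLAM_A fragment at chr15:41673058-41673105, spanning bases 73 to 120 of its consensus. It had 141 and 138 counts in DMSO and 17 and 12 in 5-FU (25.1 ± 1.88 to 2.898 ± 1.47 CPM; log2 fold change −3.16 with SE 0.33, adjusted p 4.6e-06). At 6 h it had 36 and 49 counts in DMSO and 60 and 72 in 5-FU, and at 12 h 37 and 29 in DMSO and 56 and 82 in 5-FU, neither of which passed the test (adjusted p 0.675 and 0.157). Its DMSO level at 24 h was thus above that at 6 and 12 h, and its untreated libraries had 136 and 119 counts. It fell after Nutlin as well, from 180 and 188 to 75 and 88 counts (log2 fold change −1.20, adjusted p 0.0037). A FLAM_A fragment at chr18:2804303-2804428 fell at 24 h from 88 and 102 to 23 and 34 counts (log2 fold change −1.68 with SE 0.28, adjusted p 0.000932) and at 12 h from 58 and 56 to 40 and 28 (log2 fold change −1.11, adjusted p 0.017).

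Nutlin at 6 h and 5-FU at 24 h called 8 monomer copies in common, which is 25.8% of the 31 Nutlin calls and 27.6% of the 29 calls at 24 h, and all 8 went the same way. Over all copies tested these comparisons shared 459 calls, or 22.5% of the Nutlin calls and 17.0% of those at 24 h, and 86.5% of them went the same way. A call at 24 h could be shared only where the copy was tested in both tables, as 324 of 645 monomer copies were. Of all 63602 copies at most 21328 were, so 27.6% and 17.0% are not like for like. The DMSO libraries of these comparisons are separate samples. Higher in both were the FLAM_A copy on chromosome 16 described above and a full-length FLAM_C copy at chrX:3525720-3525846, which had 30 and 31 counts in DMSO and 77 and 68 in Nutlin (log2 fold change 1.20), and 33 and 36 in DMSO and 74 and 68 in 5-FU at 24 h (log2 fold change 1.14). Lower in both were 6 copies. Besides the FLAM_A fragment on chromosome 15 these were FLAM_A copies at chr5:79922756-79922876 (−0.51 in Nutlin, −1.41 at 24 h) and chr10:96365831-96365956 (−1.51, −2.81), and FLAM_C copies at chr11:61921213-61921345 (−1.96, −1.99), chr9:139956762-139956868 (−1.41, −2.57) and chr8:27661422-27661544 (−2.34, −3.35). These 5 had 2 to 25 tested neighbours within 5 kb, whose medians were negative in both comparisons, from −0.59 to −1.99 after Nutlin and from −1.47 to −4.35 at 24 h. Nutlin at 6 h shared 3 calls with 5-FU at 12 h, of which 2 went the same way, and none with 5-FU at 6 h, where 1 copy was called.

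The 12 h and 24 h comparisons shared 14 copies, 13 of them in the same direction, which is 20% of the calls at 12 h and 48.3% of those at 24 h. Over all copies the shares were much the same, with 1276 shared calls, or 20.7% at 12 h and 47.4% at 24 h, and 98.4% in the same direction. FLAM_C had 9 of the 14. A pair of these, at chr5:88271359-88271526 and chrX:72168792-72168963, span the whole FLAM_C consensus, bases 1 to 143. They had no tested repeat of another name within 5 kb. The first had 0 and 2 counts in DMSO and 11 and 16 in 5-FU at 12 h, and 2 and 2 against 21 and 15 at 24 h. The second had 0 and 0 against 9 and 20 at 12 h, and 2 and 2 against 32 and 9 at 24 h. Both were at or under 3 counts in their DMSO libraries, so no fold is given. A FRAM copy at chr20:35952638-35952805, full length, had 5 and 15 counts in DMSO and 74 and 83 in 5-FU at 12 h (log2 fold change 2.59), and 42 and 47 against 116 and 98 at 24 h (log2 fold change 1.38). It and the other copies of this set were chosen for their calls, and their values are descriptions.

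Most called monomer copies with a tested neighbour had a neighbour called in the same direction. The 1 copy called after 6 h of 5-FU did not. After Nutlin, 25 called copies had a tested repeat of another name within 5 kb. Of these, 23 (92.0%) had a neighbour called in the same direction, against 14.3% of the 245 copies not called. At 12 h of 5-FU this was 30 of 56 (53.6%) against 24.0%, and at 24 h it was 16 of 22 (72.7%) against 13.7%. Across copies, the log2 fold change of a monomer and the median of its neighbours had a Pearson r of 0.70 after Nutlin (270 copies), 0.13 at 6 h, 0.43 at 12 h and 0.65 at 24 h of 5-FU (576 copies each). These are descriptions across copies of the same libraries, and copies in the same gene are not independent. The shares were counted for monomers only, with no such share over all repeat copies beside them. Whether a shared transcript accounts for them was not tested.

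**Figure D5:**
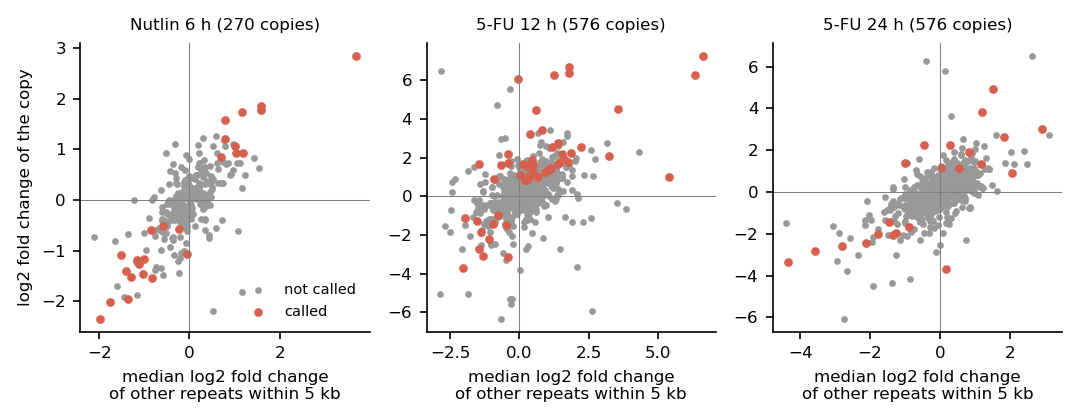
Log2 fold change of each tested monomer copy (vertical) against the median of tested repeats of other names within 5 kb (horizontal). Panels are Nutlin at 6 h and 5-FU at 12 and 24 h. Red points are called, grey points are not. Over all plotted copies, called or not, r is 0.70 after Nutlin, 0.65 at 24 h and 0.43 at 12 h. Called copies mostly have the sign of their neighbours' median (25 of 25, 19 of 22 and 50 of 56).

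The effect of 5-FU at 24 h differed from that at 6 h for 6 of 645 monomer copies, 3 higher and 3 lower, or 0.930% against 0.385% of all copies (0.0865% higher and 0.299% lower). The FLAM_C copy on chromosome 16 was among them, and so were the FLAM_A copies on chromosomes 15 and 5 and the FLAM_C copy on chromosome 9, which were near or above their DMSO libraries at 6 h and below them at 24 h. The remaining 2, at chr20:50353059-50353193 and chr2:112038237-112038379, rested on low counts.

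Against untreated cells, 1 monomer name was lower in DMSO. DMSO libraries of the 5-FU table, as the mean of 3 time points, were below untreated cells for FLAM_A by a log2 fold change of −0.27 (SE 0.07, adjusted p 0.0197), with 2531 ± 1.75 CPM in untreated cells and 2275 ± 46.2, 1784 ± 61.8 and 2268 ± 164 CPM in DMSO at 6, 12 and 24 h. FLAM_C was at −0.26 (adjusted p 0.0683), FAM at −0.24 (adjusted p 0.0711) and FRAM at −0.19 (adjusted p 0.0895). The count was 1 of 4 names called against 11.8% of all names (10.1% lower), with all 4 at an unadjusted p under 0.05. It was 0 of 4 with RLE factors, with library size alone, in DESeq2 and without either untreated replicate. Untreated cells also had a medium change 12 h before extraction, which cannot be told apart from the absence of DMSO. Among copies, 20 of 645 were called, 1 higher and 19 lower (3.10% against 1.66% of all copies, of which 0.643% higher and 1.02% lower), and the count fell to 0 and 2 without untreated replicate 1 or 2. The lowest DMSO group was again that of 12 h.

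The names of 7SL origin were counted beside the monomers. At 12 h 29 of 38 names (7SLRNA, BC200 and the Alu names) were called higher, against 28.5% of all names. Their median log2 fold change was 0.60, beside 0.57 over the 4 monomer names and 0.17 over all names. Of 4 MIR names 3 were higher, with a median of 0.25. At 24 h 3 of the 38 relatives were higher, namely BC200, 7SLRNA and 1 Alu name, against 10.9% of all names. The median of the 38 was 0.06. After Nutlin 5 of the 38 were higher and 1 lower, against 12.7% of all names called. After 6 h of 5-FU edgeR called none, against 0% of all names, with 9 of the 38 at an unadjusted p under 0.05. In DMSO 21 of the 38 were called lower than in untreated cells, against 10.1% of all names. The median of the 38 was −0.30. The 7SLRNA sum was at 0.86 at 24 h (adjusted p 0.0183) and at 0.11 at 12 h (adjusted p 0.718).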

How the data were processed

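Total RNA of 18 IMR90 samples was sequenced, and the authors deposited tables of whole-number counts per annotated repeat copy, 1 for 5-FU and 1 for Nutlin. The submitters' processing notes name Trimmomatic 0.32, cutadapt 1.10, Bowtie2, edgeR, DESeq2 and hg19, with no order. How multi-mapped reads were counted is not given in the sources used here. Counts were summed by repeat name, or by name and length class (full length at 90% of the consensus or more). Sums and single copies passing filterByExpr were tested with edgeR 4.0.16 (glmQLFit and glmQLFTest, R 4.3.3) with TMM factors and Benjamini-Hochberg adjustment over all rows tested, with a threshold of 0.05. TMM factors came from all copies for names and from tested copies for copies. The 5-FU table was fitted with all 14 libraries and the Nutlin table with its 5 distinct ones. DESeq2 1.42.0, other scalings, filters and control groups and left-out libraries were alternatives. Calls under the alternatives were counted for the monomers only, with no share over all names or copies beside them. Neighbours were tested copies of other repeat names within 5 kb, so that copies of the same name were not counted.

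Named copies were, for each drug comparison, the 2 higher and 2 lower with the smallest p among those called with a log2 fold change of at least 1 in size and no overlap, the most abundant copy of each name in each table, and up to 4 copies called in most comparisons. Other copies, chosen after their values were seen, are those shared between comparisons. The members and lists were chosen with earlier results of these data known. On simulated counts with 200 changed rows, 84% of 2-fold and 99% of 4-fold changes were recovered among 1078 names at 5-FU 12 h, but 1% and 11% among 63602 copies. For Nutlin these were 89% and 100% of 1028 names, and 29% and 63% of 21328 copies. False calls made up 18.6% of the simulated calls among copies for Nutlin and 20% at 5-FU 12 h. Among names they made up 4.55% and 3.17%. The share at 5-FU 12 h rests on few calls, since few changed copies were recovered. Lists of called copies may thus hold more false calls than the threshold on the adjusted p implies. 1 count was worth 0.155 to 0.382 CPM in the 5-FU table.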

Additional observations from a re-analysis of the deposited data

Results flagged for a closer look

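The effect of 5-FU at 24 h minus that at 6 h passed the test for 6 monomer copies. It was 2.72 (SE 0.31) for the FLAM_C copy at chr16:67844891-67845026 and −3.80 (SE 0.45) for the FLAM_A fragment at chr15:41673058-41673105. The FLAM_A copy at chr5:79922756-79922876 had −1.78 (SE 0.35, adjusted p 0.0217 in edgeR), with 160 and 137 counts in DMSO and 195 and 188 in 5-FU at 6 h, and 301 and 271 against 107 and 92 at 24 h. For the FLAM_C copy at chr9:139956762-139956868 it was −3.10 (SE 0.61, adjusted p 0.0205 in edgeR), with 10 and 22 against 21 and 25 counts at 6 h, and 55 and 50 against 6 and 11 at 24 h.

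Low counts lay behind the other 2. The FLAM_C copy at chr20:50353059-50353193 had a fitted difference of 7.004 (adjusted p 0.0418 in edgeR), from 8 and 4 counts in DMSO and 1 and 0 in 5-FU at 6 h, and 4 and 4 against 15 and 104 at 24 h. The FRAM copy at chr2:112038237-112038379 had 12.82 (adjusted p 0.0496 in edgeR), from 11 and 11 against 0 and 0 counts at 6 h, and 0 and 0 against 11 and 17 at 24 h. Fitted values of groups at 0 depend on the prior count and are no bound.

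A full-length FAM copy at chr1:211838162-211838340 was called in opposite directions. It had 1 and 0 counts in DMSO and 7 and 9 in 5-FU at 12 h (fitted log2 fold change 3.45, adjusted p 0.0332 in edgeR), and 19 and 16 against 3 and 3 at 24 h (−2.42, adjusted p 0.0408). The difference between these times was not tested.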

How the results depend on the processing

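FLAM_C at 12 h was called in all 15 alternatives (0.44 to 1.05), and the chromosome 16 copy at 12 and 24 h in all of its own (2.09 to 3.58 and 2.72 to 3.24). Of 13 results on named copies, 10 were called in every alternative that tested them. At 12 h the FRAM copies on chromosomes 1 and 2 were tested in 13 alternatives, and the other named copies in 14. The cause of the following shifts was not tested. With library size alone, 4 names were called for Nutlin and 1 for 12 h, FLAM_A and FRAM at 12 h stood at −0.18 and −0.084, and DMSO against untreated had 0 names and 32 copies. DESeq2 called 1 name and 14 copies for Nutlin, 2 names at 12 h and 0 names for DMSO against untreated, which also had 0 names with RLE factors. Without a filter on low counts, 4 copies were called at 6 h, 38 at 12 h and 16 at 24 h. With only the libraries of a comparison, 2 names and 0 copies were called at 6 h, 0 names and 15 copies at 24 h, 3 copies for 24 h minus 6 h, and 0 names for DMSO against untreated. Without the most abundant copy of each name, 24 h had 0 names and 0 length sums, DMSO against untreated 0 names and 2 sums, and 24 h minus 6 h stood at −0.065 for FLAM_C and −0.031 for its full-length sum.

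Some alternatives were chosen after seeing the data, among them TMM factors from the tested copies, which called 0 names and 0 sums for DMSO against untreated. A split at a start within the first 10 consensus bases called 2 sums there. Against the DMSO libraries of 6 and 24 h, 12 h had 2 names, 116 copies and 2 sums, with FRAM at −0.012 and its full-length sum at −0.059. FLAM_C fragments at 24 h stood at 0.084 with full length set at 80% of the consensus, 0.050 with the split by start, and between −0.12 (without 5-FU 24 h replicate 1) and 0.067 (without 5-FU 24 h replicate 2) with 1 library left out.

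Leaving out 1 library at a time gave, for names, 0 to 1 (Nutlin), 0 to 0 (6 h), 3 to 4 (12 h), 1 to 2 (24 h), 0 to 1 (24 h minus 6 h) and 0 to 1 (DMSO against untreated). For copies, in the same order, it gave 28 to 39, 0 to 1, 20 to 39, 9 to 36, 2 to 7 and 0 to 17. For length sums it gave 0 to 1, 0 to 0, 6 to 8, 1 to 3, 0 to 2 and 0 to 4. A group left with 1 library is assumed to vary like the others.

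Same-numbered samples share only a number. Their deviations correlated at 0.003, 0.0008, −0.013 and 0.112 over copies for Nutlin and 5-FU at 6, 12 and 24 h. With the replicate block 28 copies were called for Nutlin, 59 at 12 h and 24 at 24 h, and none of 18 counts moved by over 1.5 times. What part depth has in the low recovery of changed copies was not tested.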
